A study of Callithrix jacchus with 3 samples.

Results

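The sequences described here were small RNAs of 26 to 32 nt from marmoset testis that were well counted in total small RNA and far scarcer among the RNAs recovered with the PIWI protein MARWI. They were selected on measured values: at least 100 reads in total small RNA, and a share of reads in the MARWI immunoprecipitate (MARWI-IP) that was 1/16 or less of the share in total small RNA. A share was a sequence's reads over all reads of 24 to 33 nt in the same library, with 0.5 read added to the MARWI-IP count. Of 13606 sequences with the length and the total reads required, called candidates below, 1965 (14.4%) met the limit and are called members. Since this ratio chose them, their low ratios are a description and no test was made on them.

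MARWI is the common marmoset (Callithrix jacchus) counterpart of mouse MIWI. MARWI-IP RNA came from lysates of wild-type testis, and the label names 2 replicates, from animals aged 41 and 51 months, deposited as 1 column of read counts; whether that column holds both is not stated. Total small RNA was size-selected on a gel from wild-type testis of an animal aged 41 months, and RNA-seq, used here only to check the tissue, was likewise 1 column for 2 replicates of 41 and 51 months. No control immunoprecipitate was among the samples used here. MARWI-IP and total small RNA therefore differed in immunoprecipitation and size selection, and may differ in animals, and the parts of these in any ratio cannot be told apart. With 1 column for each kind of library there was no replicate error, and every interval below covers counting error only.

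piRNAs are the small RNAs bound by PIWI proteins of the germline. They are cut from long single-stranded precursors, usually begin with U, and receive their final 3′ end by trimming and methylation once a PIWI protein holds them. A testis extract also holds pieces of abundant structured RNAs in the same size range. Among these are 5′ parts of tRNAs, which decode messenger RNA, parts of Y RNAs, which form Ro ribonucleoproteins, parts of ribosomal RNA, and parts of C/D box snoRNAs, which guide 2′-O-methylation of other RNAs.

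Abundant members of each kind are shown first because the results turn on the difference between recognisable RNA classes and sequences that start like piRNAs. Those with U first are a choice. The 28-nt sequence starting Taccacc, with 5732 total reads, and the 29-nt one starting Tagtaagc, with 5230, are not shown. All sequences are written 5′ to 3′ with T for U, as deposited. Capitals mark the A box or, in the tRNA 3′ part, the B box of a tRNA gene, or the letters GGTCCGA of the Y RNAs. They also mark the 7 letters used to find the 28S ribosomal RNA start, and the letters TGATGA of a C box and CTGA of a D box. Whether a CTGA was the D box near the 3′ end of a whole snoRNA was not determined. Where no class was found, capitals mark the first base alone.
tRNA-Gly, 31 nt: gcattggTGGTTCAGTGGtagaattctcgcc
tRNA-Val, 32 nt: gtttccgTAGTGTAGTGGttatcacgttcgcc
tRNA-Lys-CTT, 32 nt: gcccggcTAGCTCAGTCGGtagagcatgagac
tRNA-Lys-TTT, 32 nt: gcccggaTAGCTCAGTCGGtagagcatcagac
tRNA-Cys-GCA, 32 nt: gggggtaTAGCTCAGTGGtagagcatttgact
tRNA-Glu-TTC, 32 nt: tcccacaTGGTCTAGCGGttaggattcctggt
tRNA 3′ part, 32 nt: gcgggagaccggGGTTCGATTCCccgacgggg
Y4 RNA, 32 nt: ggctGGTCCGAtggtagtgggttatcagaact
Y1 RNA, 32 nt: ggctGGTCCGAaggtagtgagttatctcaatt
Y3 RNA, 30 nt: ggctGGTCCGAgtgcagtggtgtttacaac
Y5 RNA, 32 nt: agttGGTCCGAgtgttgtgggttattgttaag
28S rRNA, 31 nt: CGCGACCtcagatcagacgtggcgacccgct
C and D box, 27 nt: acgggTGATGAgaactggagtCTGAgc
C and D box, 28 nt: ttactTGATGAcaataaaagatCTGAta
U first, 29 nt: Tccaactgctgtacgacacagagcccggc
U first, 27 nt: Tgagctggagctatttggactagtatc
U first, 30 nt: Tatgagtctgtctccctaaatgtcttgcgg
U first, 27 nt: Tttccacgtttatgctcactcctctgg
U first, 28 nt: Tagtgaataaggctcacaagatctcatt
U first, 26 nt: Taggatgatccatccctgtgtaaccc
A first, 31 nt: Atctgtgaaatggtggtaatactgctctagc
No MARWI-IP read, 30 nt: Tgcgaaagagacgggctggccctccccagc
No MARWI-IP read, 28 nt: Gacaaagacgtgcccggcagacctgccc
Class names were given from knowledge of mammalian RNAs by short matches, on the sequenced strand, after the sequences had been seen. A match describes the letters of the read and does not place it in the genome.

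Depth and tissue set the frame for these counts. The MARWI-IP table held 110209593 reads, all of 24 to 33 nt, and total small RNA held 12792323 reads of those lengths, so that a sequence with equal shares had 8.62 MARWI-IP reads for each total read. In the RNA-seq table the spermatid genes PRM1 and TNP1 stood at 7177 and 1678 RPKM (reads scaled by transcript length and library size), the germ cell helicase DDX4 at 26.96 and the Leydig cell hormone INSL3 at 404, while AMH, made by immature Sertoli cells, stood at 0.148.

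Together the 1965 members made up 0.177% of MARWI-IP reads (195002 reads; 95% interval 0.176 to 0.178%) and 9.83% of total small RNA reads (1257883 reads; 9.82 to 9.85%). All candidates together held 50.5% of the MARWI-IP reads and 46.1% of the total reads, so about as much of each library was covered by the window from which the members were taken. The median ratio of a member was 0.0205, with quartiles of 0.00790 and 0.0383. Over all candidates the median was 0.733, with quartiles of 0.189 and 1.57. Members were thus the low tail of a broad range, and 781 of them had a ratio of 1/64 or less.

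The limit itself cut through a continuous range. The 3 members nearest inside it had ratios of 0.0623 to 0.0625 and the 3 candidates nearest outside it had ratios of 0.0625 to 0.0626. The median member had 204 reads in total small RNA, 963 members had fewer than 200, and the most abundant had 174599. No read was counted in MARWI-IP for 62 members, whose total counts ran from 100 to 1517, and 1 to 3 reads were counted for another 114. The deepest of the 62 was the 30-nt sequence starting Tgcgaaag, with 0 MARWI-IP reads and 1517 total reads. A limit of 3 MARWI-IP reads makes it at least 4356-fold lower in MARWI-IP. The 28-nt sequence starting Gacaaagac, with 0 and 735 reads, would be 2111-fold lower with 3 reads, and its interval reached up to 0.000584.

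A smaller share of the members than of the candidates had U first. U was the first base of 1585 members (80.7%) and of 12519 candidates (92.0%). G was first in 137 members and 316 candidates, A in 119 and 365, and C in 124 and 406. The rule thus kept 12.7% of candidates that started with U, 43.4% of those with G, 32.6% of those with A and 30.5% of those with C. By total reads, members with U first held 55.0% of the members' reads, and candidates with U first held 84.6% of the candidates' reads. For G the shares were 33.9% and 8.42%. Members that started with another base than U also had lower ratios, with medians of 0.00680 for G, 0.00634 for A and 0.0107 for C, beside 0.0238 for U. Among the 62 members with no MARWI-IP read, 39 started with a base other than U.

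Fragments of tRNA 5′ ends were the largest recognisable group. The A box consensus near the start of a tRNA was found, from position 7 to 9 on, in 48 members and 96 candidates (0.706% of all candidates). Of the 54 such candidates with a first base other than U 44 were members, and of the 42 with U first 4 were. The 48 members had 17 different starts, and their MARWI-IP reads numbered 26915 beside 376315 total reads, which was 29.9% of all member reads.

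tRNA-Gly gave most of them. Its 11 members of 28 to 32 nt had 24623 MARWI-IP reads and 330104 total reads, which was 26.2% of the members' reads, and a ratio of 0.00866 (0.00855 to 0.00877). The 31-nt form shown above had 10877 MARWI-IP reads and 174599 total reads, the most of any member, and was 138-fold lower in MARWI-IP. At 32 nt the counts were 3664 and 88058, and at 30 nt they were 6585 and 35630. Every length of this start from 29 to 33 nt was far lower in MARWI-IP, and at 33 nt, outside the window of the rule, MARWI-IP had 5461 reads and total small RNA 160968. The forms of 26 to 28 nt were less reduced, with ratios of 0.291, 0.147 and 0.0680, whereas those of 24 and 25 nt had ratios of 0.00806 and 0.0232. Among 15 tRNA-Gly candidates the highest ratio was 0.291.

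All 7 candidates of tRNA-Lys-CTT, 28 to 32 nt long, were members, with 355 MARWI-IP reads and 14008 total reads (340-fold lower). Its 32-nt form stood out with 7 MARWI-IP reads and 9709 total reads, an 11949-fold lower share (ratio 8.37e-05, interval 3.36e-05 to 0.000172), whereas its 29-nt form of the same start had 123 and 651 reads. Another 32-nt form of this tRNA, ending gcatgggac, had no MARWI-IP read and 446 total reads. All 6 candidates of tRNA-Lys-TTT were members too, with 245 and 4114 reads (145-fold lower), as were all 5 of tRNA-Cys-GCA, with 342 and 3256 reads (82.0-fold lower).

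Other tRNA starts were split by length. For tRNA-Val only the 32-nt form was a member, with 665 MARWI-IP reads and 20106 total reads, a ratio of 0.00384 (0.00355 to 0.00415). Its 29-nt form had 18555 MARWI-IP reads and 2884 total reads, a ratio of 0.747, and its 28-nt form had 2216 and 219 reads, a ratio of 1.17. The 32-nt and 28-nt forms of 1 tRNA 5′ end thus lay on both sides of an equal share. tRNA-Glu-TTC, which starts with U, differed from the other tRNA fragments named. Its 2 starts had ratios of 5.32 and 6.09 over all lengths from 24 to 33 nt, and only 2 of its 14 candidates, both of 32 nt, were members. The 32-nt member starting tcccaca had 140 MARWI-IP reads and 737 total reads (45.4-fold lower). The part of a tRNA that carries the B box, the second internal promoter element, was found in 3 members of 31 and 32 nt and 4 candidates (0.0294%), and the 3 members had 0 MARWI-IP reads and 427 total reads together.

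Y RNA 5′ ends were members with few exceptions. The letters GGTCCGA at positions 5 to 11 were found in 22 members and 24 candidates (0.176%), and in all 24 the first base was A or G. All 7 candidates of Y1 RNA were members, with 306 MARWI-IP reads and 12238 total reads (345-fold lower). All 6 of Y4 RNA were members, with 1641 and 14171 reads (74.4-fold lower), and so were all 4 of Y3 RNA, with 75 and 843 reads (96.8-fold lower). The counting intervals of the ratios of Y1 (0.00258 to 0.00325) and Y4 (0.0128 to 0.0141) did not overlap. These intervals pool the lengths. At 31 nt the ratio of Y4 was far above that of Y1 (0.0194 and 0.00158, all forms of each start). The same was true at 32 nt (0.0120 and 0.00156). At 27 nt (0.00387 and 0.00384) and 30 nt (0.00177 and 0.00103) Y4 was nearer to Y1. At 26, 28 and 29 nt Y4 was below Y1, so the pooled difference did not hold at each length. Y5 RNA was least reduced, with 370 and 1222 reads in 5 members (28.5-fold lower), and its candidates of 26 and 29 nt were outside the limit at ratios of 0.100 and 0.0908.

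Pieces of 28S ribosomal RNA had some of the lowest ratios. All 7 candidates at the 5′ end of 28S rRNA, 28 to 32 nt long, were members and had 79 MARWI-IP reads and 13887 total reads (1514-fold lower). The 31-nt form had 11 and 7429 reads and the 32-nt form 5 and 2954. One shorter form of the same 28S start went the other way: at 25 nt, below the window, MARWI-IP had 106 reads and total small RNA 6.

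Sequences with the letters of C/D box snoRNAs formed the next group. TGATGA starting within the first 9 positions together with CTGA followed by at most 4 bases was found in 32 members and 39 candidates (0.287%). They had 24 starts, 958 MARWI-IP reads and 26317 total reads, and a median ratio of 0.00290. Of 30 such candidates with a first base other than U 28 were members, and of 9 with U first 4 were. The leading 27-nt form had 303 MARWI-IP reads and 7357 total reads (209-fold lower). The 28-nt form starting ttact had 24 and 3646 reads (1309-fold lower), and its 27-nt form had 13 and 1790. Each box was commoner when the other was not required. TGATGA near the start was in 161 candidates (1.18%), 51 of them members, and CTGA near the end was in 708 candidates (5.20%), 152 of them members.

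The 7 candidates with both boxes outside the limit included 4 sequences that begin in or just before TGATGAaagcaac. The 30-nt one, TGATGAaagcaacatctgcatgctCTGAct, had 9214 MARWI-IP reads and 1376 total reads, a ratio of 0.777. It starts with U, and the box lies at the first base and not behind a short leader as in the members shown. Those of the 7 beyond the 4 did have a leader before the box. Their ratios were 0.701 (31 nt, G first), 0.911 (29 nt, U first) and 0.237 (30 nt, A first). Some members with both boxes start with U too, so neither mark set the sequences outside the limit apart. The letters ACA followed by any 3 bases at the 3′ end, the mark of H/ACA snoRNAs, were in 26 members and 235 candidates (1.73%), and 11.1% of the candidates that held them were members, against 14.4% of all candidates.

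In all, 114 members (5.80%) and 172 candidates (1.26%) held a class mark, and the 114 held 35.4% of the members' total reads. No class was found for 1851 members, of which 1577 started with U and 274 did not. Among candidates 13434 had no class, of which 12467 started with U and 967 did not. The rule kept 13.8% of candidates with no class, against 14.4% of all candidates. The 274 members held 127684 total reads. The most abundant was the 31-nt sequence starting Atctgtgaaatgg, with 359 MARWI-IP reads and 11816 total reads (284-fold lower). Its 27-nt to 29-nt forms were less reduced: at 28 nt the counts were 4903 and 2843, a ratio of 0.200.

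The 1577 members with U first and no class were the bulk of the set, and their most abundant sequence was the 29-nt one starting Tccaactgc. It had 3323 MARWI-IP reads and 18276 total reads (47.4-fold lower). The 27-nt sequence starting Tgagctgg had 1216 and 11780 reads (83.5-fold lower), and the 30-nt sequence starting Tatgagtc had 4523 and 8822 reads (16.8-fold lower), close to the limit. Next came the 27-nt sequence starting Tttccacg, with 341 and 7263 reads (183-fold lower). The lowest ratio among the 10 most abundant members with U first was that of this sequence, 0.00546. The others of the 10 had 222 to 1433 MARWI-IP reads and 4321 to 5732 total reads.

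More of the members than of the candidates lay at the short and the long end of the window. Of the members 14.7% were 26 or 27 nt long and 20.5% were 31 or 32 nt long, against 7.09% and 15.3% of candidates. At 29 and 30 nt were 51.7% of members and 64.2% of candidates. The share of candidates with U first that met the limit was 27.5% for 26 nt and 24.4% for 27 nt. It was 11.8% for 28 nt, then 10.5% for 29 nt and 10.9% for 30 nt, and it was 14.6% for 31 nt and 25.3% for 32 nt. The same valley in the middle was present for other first bases, at a higher level: 62.8% for 26 nt, 24.5% for 29 nt, 24.6% for 30 nt and 65.8% for 32 nt. Beyond the window of 26 to 32 nt the rule did not use length, but both libraries were scaled by 1 total for all lengths, and shares computed within each length changed the long end, as given with the other alternatives.

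Some members shared a 5′ end. The 1965 sequences had 1530 different starts, taken as the first 18 nt, while the 13606 candidates had 8913. Of the starts of members 1246 held a single one, so that 63.4% of members, and 43.7% of candidates, were alone of their set at their start. The other 284 starts held 719 members, with up to 9 at a start. Members are a small part of the candidates, and any small part of a set tends to be alone at a start more often. The percents alone at a start therefore do not show whether members shared starts less often than candidates. The 10 starts with the most reads held 35.8% of all member reads. Sequences that overlapped by 18 nt or more, at any position, joined into 1185 groups, of which 229 held more than 1 start. The members of such a group are not independent sequences.

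Whether a start as a whole was low in MARWI-IP was seen by adding up all its forms of 24 to 33 nt. The summed ratio was 1/16 or less for 819 of 1530 starts (53.5%). For starts with another base than U it was so for 189 of 238 (79.4%), with a median ratio of 0.0142. For starts with U it was so for 630 of 1292 (48.8%), with a median of 0.0651, and 168 of them were above 1/4 and 19 at or above an equal share. The other starts with U thus held members through some of their lengths while the sum over all lengths was above the limit. The sums include the members' own reads, which the rule chose as low, so low sums are partly built in. The same shares over all candidate starts are not given, so these counts have no background beside them. The commonest form of a start in total small RNA was a member 1162 times over the 1292 starts with U and 211 times over the 238 others. These were 73.3% of the 1585 members with U first and 55.5% of the 380 others. A start has only 1 commonest form, so these percents are limited by the number of members per start and do not compare the first bases.

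Single starts show how ratios ran over the lengths of a start. The start Tagtgaataagg had its most total reads at 28 nt, the member, with 738 MARWI-IP reads and 5495 total reads. At 29 nt the counts were 1571 and 2801, and at 30 nt they were 24267 and 3450. The 28-nt and 30-nt forms of this start thus had ratios of 0.0156 and 0.816. The start Taggatgatcc had 587 and 4983 reads at 26 nt, 2406 and 678 reads at 29 nt and 6634 and 1100 reads at 30 nt, with ratios of 0.0137, 0.412 and 0.70. The start Tccaactgc went the other way, since its 28-nt forms, 1 nt shorter than the member, had 21804 MARWI-IP reads and 533 total reads, a ratio of 4.75. By contrast the start Tgagctgg was low at both of its common lengths, 27 nt with 1216 and 11780 reads and 28 nt with 122 and 3896, and its sum over 24 to 33 nt had a ratio of 0.0136.

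The commonest length of a start in MARWI-IP was compared with that in total small RNA, over starts with U and at least 50 MARWI-IP reads. Where the commonest total form was 26 or 27 nt, MARWI-IP had a longer commonest form for 91 of 107 starts with a member (85.0%) and for 147 of 206 candidate starts (71.4%). Where it was 31 or 32 nt, MARWI-IP had a shorter one for 111 of 179 starts with a member (62.0%) and for 274 of 1163 candidate starts (23.6%). At 29 nt the lengths were the same for 161 of 331 starts with a member (48.6%) and for 2533 of 2976 candidate starts (85.1%). The rule favours forms that are low in MARWI-IP, so the difference between members and candidates is partly built in. Among all candidate starts of 26 and 27 nt, too, a longer commonest form in MARWI-IP was more frequent than the same one, which 55 starts had. These 206 starts include the 107 with a member, which gave 91 of the 147 longer ones, so this count is partly built in as well. All these starts were chosen by their length in total small RNA, and the reverse choice, by length in MARWI-IP, is not given.

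Some members were overlapped by sequences with other starts and high ratios. A sequence with another start, at least 18 shared nt and a ratio of 1 or more was found for 394 of 1585 members with U first (24.9%) and for 5747 of 12519 candidates with U first (45.9%). For other first bases it was found for 32 of 380 members (8.42%) and 395 of 1087 candidates (36.3%). Since members and candidates were set apart by the ratio, and overlapping sequences tend to share one, this is a description. In the cases shown a start a few bases away went with a much higher ratio. The pairs below share most of their bases, and capitals mark the first base.
Member, 29 nt: Tcccatatctgtgatattgaaaaatgaac
Overlapping, 30 nt: Tatctgtgatattgaaaaatgaaccgccgc
Member, 29 nt: Ttctgcacagtttgcctgagcacctctgc
Overlapping, 30 nt: Tgcacagtttgcctgagcacctctgcctgc
In the first pair the member had 392 MARWI-IP reads and 2704 total reads, a ratio of 0.0168. The overlapping sequence starts 5 nt downstream and had 69338 and 2851 reads, a ratio of 2.82. In the second pair the member had 259 and 3495 reads, a ratio of 0.00860, and the sequence that starts 3 nt downstream had 18801 and 581 reads, a ratio of 3.76. In both pairs MARWI-IP held far fewer reads of the member than of the overlapping sequence, although total small RNA held nearly as many or more.

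Larger groups of overlapping members had mixed starts. The group with the most members among the leading ones had 19 members with 7 starts over 45 nt, and all forms along it had 14876 MARWI-IP reads and 31563 total reads, a ratio of 0.0547. No read of the opposite strand was counted in either library. A second group had 17 members with 11 starts over 58 nt, with 39891 and 39153 reads, a ratio of 0.118, and 3 and 7 reads of the opposite strand. Along it, the start at the fourth base, Tgagctgg, had a ratio of 0.0136, and the start 25 bases further had 22740 and 7579 reads, a ratio of 0.348. All 13 starts along this group with at least 100 total reads stood below an equal share. Another group had 14 members with 5 starts over 37 nt, with 19026 and 35185 reads, a ratio of 0.0628. These stretches were joined from the reads, and no genome position is given for them.

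Base composition differed by small amounts after the first base. Over positions 2 to 16, members with U first averaged 22.7% C and 23.7% A, and the other candidates with U first averaged 19.1% C and 27.7% A. A at position 10 was found in 23.0% of members with U first and 28.9% of the others, and A at position 5 in 34.0% and 40.9%. G at position 3 was found in 15.1% and 21.0%. The last base was C in 42.3% and 32.4% and U in 22.4% and 28.4%. With each start counted once the last base was C in 44.7% and 36.4%, and A at position 10 stood at 23.99% and 28.7%. G and C together made up 45.4 ± 9.55% of a member with U first and 43.3 ± 7.88% of the others (SD over 1585 and 10934 sequences), so the distributions overlapped widely.

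Reads outside the deposited lengths of MARWI-IP gave 1 measure that the rule had not used, for total small RNA alone. Of the reads that shared a start with a member of the 28S rRNA class, 48.1% were longer than 33 nt. The same share was 19.7% for Y RNA, 15.9% for starts with a B box, 3.20% for starts with an A box and 0.0811% for starts with a C and a D box. For all starts of members with U first it was 1.29%, and for all candidate starts with U 0.365%. These sets with U include the tRNA-Glu-TTC starts, with 2683 and 923 reads of 34 nt among the 17302 longer reads at member starts with U. For starts of members with no class, of any first base, the share was 0.959%. It was 1.02% for all candidate starts of any first base, those with a class included. The class with both snoRNA boxes was defined with a box near its 3′ end, inside the window, so its low share is partly built in, whereas the rRNA, Y RNA and A box marks lie near the 5′ end. Reads shorter than 24 nt were 1.40% at member starts with U and 2.00% at all candidate starts with U.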

How the data were processed

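Small RNA of wild-type marmoset testis was sequenced from total RNA and from MARWI-IP, with libraries made by the NEBNext small RNA reagents, per the labels. The authors deposited raw read counts for each distinct small RNA sequence, and RPKM values per transcript for RNA-seq. Bowtie, TopHat and Cufflinks are named, with neither role nor version, per the submitters' processing notes. For trimming, filters and genome build, the steps are not given in the sources used. The total table holds 20 to 51 nt and that of MARWI-IP 24 to 33 nt, so its sum is not that library's full depth, and RPKM values have no known depth.

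Members, families and class marks were computed with Python 3.11.15, numpy 2.4.6, pandas 2.3.3 and scipy 1.17.1, after the selection was tested on simulated data. Shares have exact (Clopper-Pearson) 95% intervals, and ratios exact intervals from the conditional binomial. Folds and intervals use counts without the added 0.5 read. Counts are reads, not molecules. Members and lists were chosen with earlier results of these data known. Named sequences were the most abundant members, those with U first, per start and per class, those of lowest ratio and those nearest the limits; other members, pairs, groups and outside sequences were chosen after their values were seen. No table of reference RNA sequences was at hand, so the planned match to annotated RNAs was replaced by short marks, searched in the order tRNA, Y RNA, rRNA, C/D box. A few classed sequences are counted but not reported here. No genome positions are given.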

Additional observations from a re-analysis of the deposited data

How the results depend on the processing

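The main values were 1965 members, 0.177% of MARWI-IP reads, 9.83% of total reads, 80.7% with U first and 20.5% of 31 or 32 nt. A minimum of 50 reads gave 3811 members with 0.201% of MARWI-IP and 10.8% of total reads, and a minimum of 200 gave 1002 with 0.151% and 8.79%. A ratio limit of 1/8 gave 2775 members, 0.412% and 12.4%, with 84.2% U first, and a limit of 1/32 gave 1289 members, 0.0848% and 7.76%, with 75.7% U first and 23.0% of 31 or 32 nt. Shares over 26 to 32 nt gave 0.186% and 10.5%, shares without the 10 most abundant sequences 0.168% and 7.97%, and lengths of 24 to 33 nt 0.192% and 12.1%, with 78.1% U first. Shares within each length gave 0.184% and 9.86%, with 17.8% of 31 or 32 nt, and 1846 of its 1958 members were among the 1965. With no read added, or 3 reads in place of lower counts, 1971 sequences met the limit. Starts of 15 or 20 nt gave 1525 or 1534 families, and overlaps gave 1185, beside 1530. In 2 alternatives chosen after seeing the data, U was first in 84.4% of starts and 55.0% of total reads.

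No paired analysis was possible because each library was deposited as 1 column and no test was made. Both alternatives of the match to annotated RNAs were not run, for want of reference sequences. Ratios of members with few MARWI-IP reads are set by counting error: 62 had none and 114 had 1 to 3, so the order among the lowest ratios is not known. Class counts rest on short marks and miss sequences that lack them.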

Other observations

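Some members differed in 1 base from a sequence of the same length that was much commoner in MARWI-IP. Such a sequence with more than 10 times the member's MARWI-IP reads was found for 29 of 1965 members (1.48%) and for 15 of the 11641 other candidates (0.129%), a count that the choice of sequences low in MARWI-IP favours. In 15 of the 29 the first base was U, and in 5 of those the related sequence had a ratio above 1. Positions are counted from 1 at the 5′ end, the member's base is given first, and capitals mark the base that differs.
Member: tatctgtgatattgaaaaatTaaccgccgc
Related sequence, T21G: tatctgtgatattgaaaaatGaaccgccgc
Member: tttctgcattttactcctaatcatgaAgta
Related sequence, A27C: tttctgcattttactcctaatcatgaCgta
Member: taaagtctattttatcAgagatgagaatt
Related sequence, A17G: taaagtctattttatcGgagatgagaatt
For T21G the member counted 297 MARWI-IP and 1047 total reads, and the related sequence had 69338 and 2851, with ratios of 0.0329 (0.0288 to 0.0375) and 2.82 (2.72 to 2.93). For A27C the member had 39 and 336 reads and the related sequence 1346 and 34, with ratios of 0.0135 and 4.60. For A17G the member had 24 and 391 reads and the related sequence 332 and 36, with ratios of 0.00712 and 1.07. In each of these 3 pairs the 2 ratios had counting intervals that did not overlap. The labels give total small RNA 1 age and MARWI-IP 2, with 1 column each, and the part of any difference between animals in these pairs was not tested.

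Some members of the tRNA-Gly class were related in the same way to the leading form, at a much lower count in both libraries. The member starting gcatggg differs from it by G5T and counted 281 MARWI-IP and 6236 total reads, a ratio of 0.00523, beside 0.00723 for the leading form with 10877 and 174599 reads. Both lay far inside the limit.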
